A study of Homo sapiens with 4 samples.

Results

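The 9 genes described here are EGR1, the AP-1 subunits FOS, FOSL1, FOSL2, JUN, JUNB and JUND, and the immediate early response genes IER2 and IER3. They were taken by name from a table of 14416 genes and from the gene names of 2 m6A peak lists, and all 9 were in the gene table. The libraries came from OMM2.3, an established human uveal melanoma cell line labelled as wild type. Cells received meclofenamic acid (MA) or DMSO (NC, the control) for 24 h. Meclofenamic acid is an anti-inflammatory drug that also inhibits the m6A demethylase FTO; its dose is not given in the sources used here. Each condition had 1 input library, read as transcript levels in FPKM (fragments per kilobase of transcript, scaled to library size), and 1 RIP library of RNA pulled down with an antibody to N6-methyladenosine (m6A), read as a list of peaks. With 1 library per group there was no replicate and no test, and each difference below is one between these libraries.

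Immediate early genes are switched on by growth factors, stress and serum without new protein synthesis, through kinases that act on factors such as SRF already bound to their promoters. Their transcripts are short-lived, in part because AU-rich elements in the 3' UTR recruit decay factors. JUN and FOS proteins pair through leucine zippers to form AP-1, and EGR1 is a zinc finger factor. m6A, laid down mostly near stop codons and in 3' UTRs, is another mark tied to transcript decay.

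The labelled cell type showed in the inputs: all 8 melanocytic markers checked, among them PMEL and SOX10, were above 1 FPKM in both. Among 13 markers of other cell types (fibroblast, immune, endothelial, epithelial), the table listed 9, of which only LUM reached 1 FPKM. The summed level of the melanocytic markers was 3420 FPKM in MA against 7773 in NC, and that of the other markers 12.5 against 5.61. LUM made up most of the second sum in both inputs, so its higher value in MA is that of LUM. The rest of the listed other markers, each under 1 FPKM, were some higher and some lower in MA. The part of these marker differences in the results below was not tested. In bulk RNA, fewer cells with a transcript and less of it per cell cannot be told apart. Depth, worked back from FPKM, came to 37041597 fragments in the NC input and 41630895 in the MA input.

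Of the 9 genes, JUN, EGR1 and JUND stood at least 2-fold higher in the MA input, 5 differed by less, and FOSL1 was barely detected. Differences were taken as log2((MA FPKM + 1)/(NC FPKM + 1)), which understates those of low genes, and a gene was tested if either input had it at 1 FPKM or above. This filter kept 8 of the 9 genes and 10564 genes in all. A level at least 2-fold higher in MA was seen for 3 of the 8 tested members and for 10.3% of all tested genes. A level at least 2-fold lower was seen for 0 of the 8 and for 2.98% of all. The median log2 difference of the 8 was 0.19, close to the 0.11 of all tested genes. The list did not move as a block: 6 members lay above 0 and 2 below, from -0.43 to 2.85. Among all tested genes, between 41.6% and 45.2% lay below 0.

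JUN family products can pair with each other as well as with FOS proteins. JUN, the founding AP-1 subunit, was at 11.6 FPKM in NC and 89.8 in MA. Its log2 difference of 2.85 was above 99.9% of tested genes. The ratio without a pseudocount was 7.73, with an exact 95% binomial interval of 7.31 to 8.17 from at least 1401 reads in NC and 12171 in MA. JUND, the subunit usually abundant in resting cells, was at 74.4 FPKM in NC and 217 in MA (log2 difference 1.53, ratio 2.91, 2.76 to 3.07). JUNB, often a weaker activator than JUN, was at 39.3 FPKM in NC and 44.1 in MA. Its log2 difference of 0.16 lay near the middle of all tested genes, at percentile 53.2. Thus within one family JUN and JUND were far higher in the MA library while JUNB was nearly level. These intervals cover counting error only and are too narrow where PCR copies were counted. That of JUND is too wide for counting error, as it uses the smallest read numbers, at 643 bp, not those at 1929 bp.

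No FOS family gene reached 2-fold in either direction. FOS, which needs a JUN partner to bind DNA, was at 19.2 FPKM in NC and 14.0 in MA, a log2 difference of -0.43 at percentile 17.4. The ratio was 0.728, with a counting interval of 0.674 to 0.785, so the lower MA value was beyond counting error, yet under 2-fold. FOSL2, encoding FRA-2, was at 4.85 FPKM in NC and 5.81 in MA (log2 difference 0.22, ratio 1.20, 1.12 to 1.28). FOSL1, encoding FRA-1, was at 0.127 FPKM in NC, from as few as 4 reads, and was listed at 0 in MA. FOSL1 was therefore under the filter, and no fold is given.

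EGR1 was at 18.0 FPKM in NC and 54.0 in MA, a log2 difference of 1.54 and a ratio of 3.00 (2.86 to 3.16) from at least 2087 and 7047 reads. It stood at percentile 98.5 of tested genes, beside JUND at 98.4. IER2, a nuclear regulator, was at 60.8 FPKM in NC and 64.5 in MA, a log2 difference of 0.08, or -0.03 when the median gene was set to 0. IER3, a stress-inducible regulator of survival and ERK signaling, was at 264 FPKM in NC and 245 in MA (-0.11, ratio 0.928, 0.905 to 0.952). IER2 and IER3 were thus almost level, although IER3 was the most abundant of the 9 in both libraries. Over the 2 inputs, the genes closest to EGR1 in level and difference were the condensin subunit NCAPG (18.5 FPKM in NC, 55.1 in MA), KLF10 (17.2, 53.4) and the deubiquitinase USP1 (17.3, 48.8). This nearness rests on 2 values per gene.

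**Figure D1:**
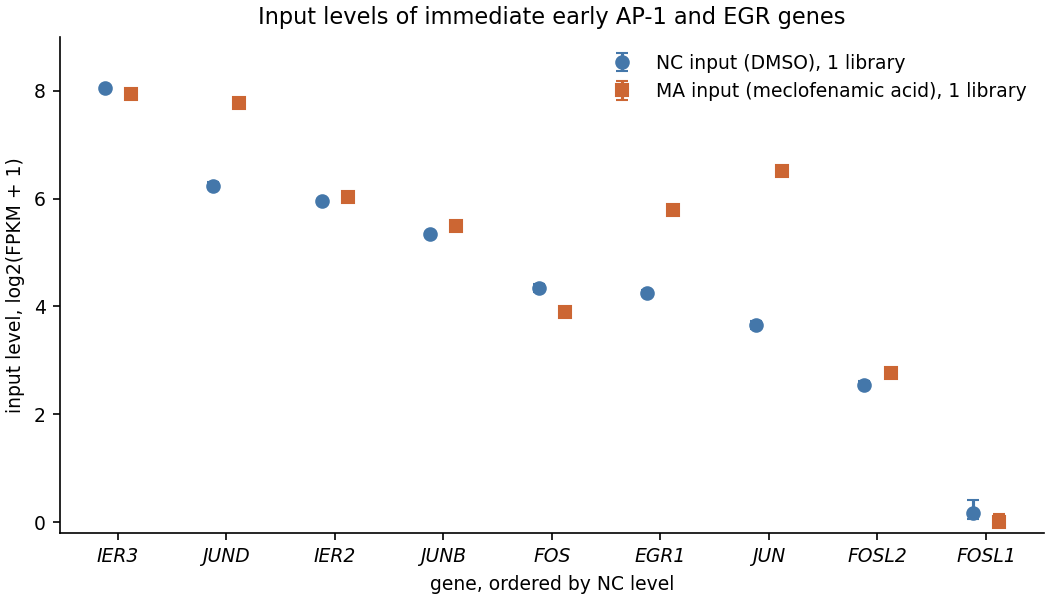
Input level of each gene as log2(FPKM + 1), NC as circles and MA as squares, 1 library each, with bars for the exact 95% Poisson counting interval, mostly smaller than the symbols. JUN goes from 11.6 to 89.8 FPKM, JUND from 74.4 to 217 and EGR1 from 18.0 to 54.0, while the symbols of the other genes lie close together, with FOS somewhat lower in MA.

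**Figure D2:**
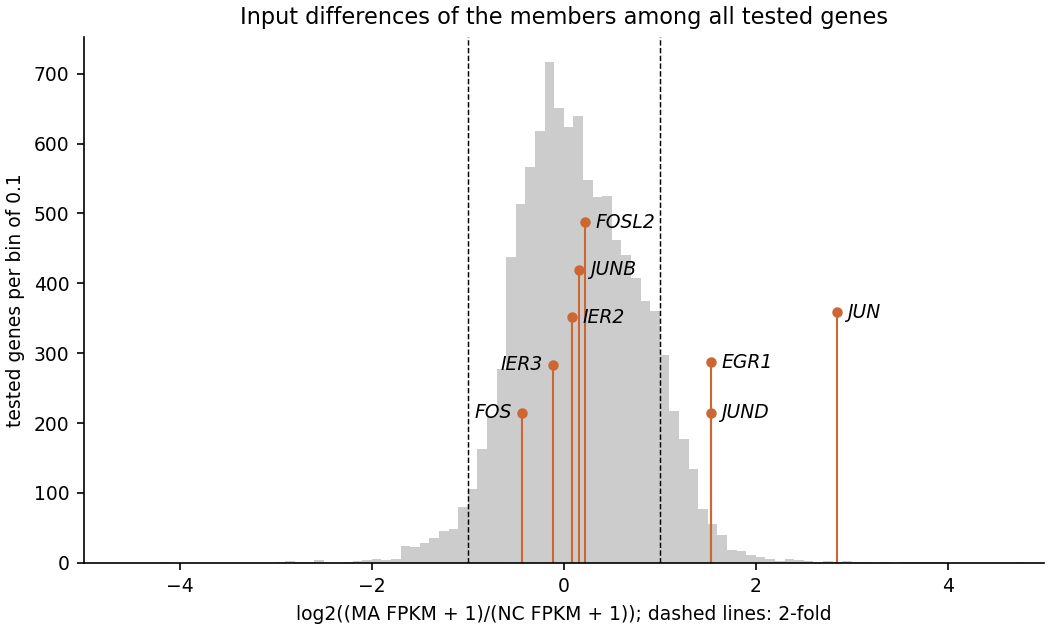
Histogram of the log2 difference between the inputs for 10564 tested genes in bins of 0.1, with the 8 tested members as labelled stems whose height has no meaning. JUN, EGR1 and JUND lie right of the dashed 2-fold line and the other 5 lie in the body of the distribution.

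The order of the levels differed between the libraries. In NC it ran IER3, JUND, IER2, JUNB, FOS, EGR1, JUN, FOSL2 and FOSL1. Only FOS and EGR1, at 19.2 and 18.0 FPKM, had overlapping counting intervals among neighbours. In MA the order was IER3, JUND, JUN, IER2, EGR1, JUNB, FOS, FOSL2 and FOSL1, and no neighbours overlapped. JUN moved from rank 7 to rank 3 and FOS from rank 5 to rank 7.

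Per length, JUN family transcripts therefore outnumbered FOS family transcripts by more in MA than in NC. The summed FPKM of JUN, JUNB and JUND was 125 in NC and 351 in MA, and that of FOS, FOSL1 and FOSL2 was 24.2 in NC and 19.8 in MA. The ratio of both sums was 5.18 in NC and 17.7 in MA. JUND supplied 49.8% of the AP-1 total in NC and 58.5% in MA, and JUN supplied 7.77% and 24.2%. The JUNB share was 26.3% in NC and 11.9% in MA although its level was nearly the same, and the FOS share was 12.8% and 3.77%. These are shares of transcripts, not of protein.

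**Figure D3:**
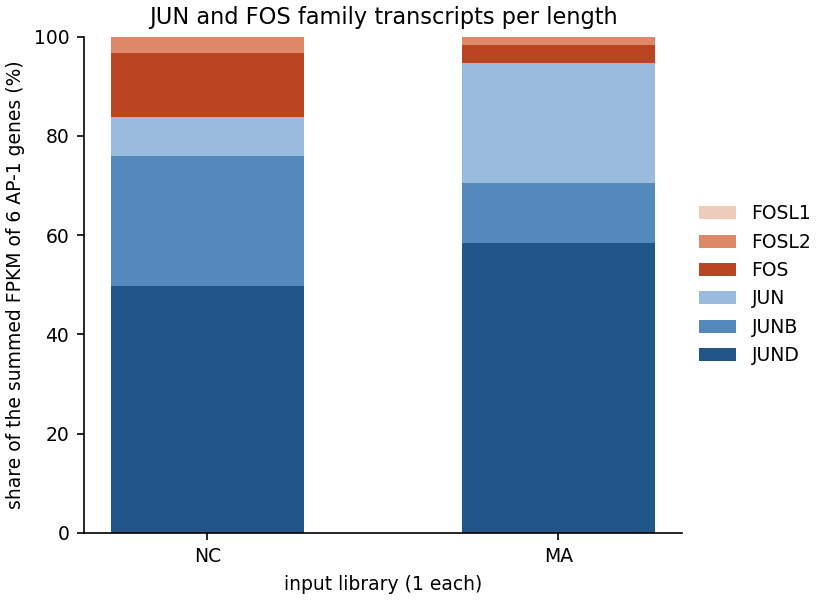
Share of each of 6 AP-1 genes in their summed FPKM, as stacked bars to 100%, for the NC and MA inputs. The FOS genes (red tones) shrink from 16.2% to 5.34% and JUN (lightest blue) grows from 7.77% to 24.2%.

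RefSeq promoters were in the table used for 7 of the 9 genes (build GRCh38.p14), all except FOSL1 and IER3. The 250 bases before the start are printed 5' to 3' for the 3 genes that were higher by 2-fold, with FOS, the lowest tested member, for comparison. Capitals mark matches on either strand to the CArG box, the core of the serum response element bound by SRF, to the full cyclic AMP response element TGACGTCA, to its part TGACGT, to the AP-1 element TGANTCA, to the variant TGACATCA and to the EGR site GCGNGGGCG.
EGR1 promoter, chr5:138465229-138465478, plus strand: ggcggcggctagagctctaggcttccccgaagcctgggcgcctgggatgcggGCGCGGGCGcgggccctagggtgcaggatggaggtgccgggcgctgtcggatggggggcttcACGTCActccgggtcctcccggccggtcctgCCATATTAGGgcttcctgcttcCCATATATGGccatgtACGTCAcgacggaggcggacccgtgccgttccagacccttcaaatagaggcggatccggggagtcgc
JUN promoter, chr1:58784048-58784297, minus strand: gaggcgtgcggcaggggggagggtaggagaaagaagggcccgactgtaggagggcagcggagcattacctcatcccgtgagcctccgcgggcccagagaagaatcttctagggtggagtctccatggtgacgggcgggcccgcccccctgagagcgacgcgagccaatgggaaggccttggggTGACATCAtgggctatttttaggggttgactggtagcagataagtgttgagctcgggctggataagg
JUND promoter, chr19:18281623-18281872, minus strand: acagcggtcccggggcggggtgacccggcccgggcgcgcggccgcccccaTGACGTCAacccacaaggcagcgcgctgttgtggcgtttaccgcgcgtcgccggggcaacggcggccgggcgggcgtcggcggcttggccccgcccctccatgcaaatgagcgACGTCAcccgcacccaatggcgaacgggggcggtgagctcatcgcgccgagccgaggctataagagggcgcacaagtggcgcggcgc
FOS promoter, chr14:75278578-75278827, plus strand: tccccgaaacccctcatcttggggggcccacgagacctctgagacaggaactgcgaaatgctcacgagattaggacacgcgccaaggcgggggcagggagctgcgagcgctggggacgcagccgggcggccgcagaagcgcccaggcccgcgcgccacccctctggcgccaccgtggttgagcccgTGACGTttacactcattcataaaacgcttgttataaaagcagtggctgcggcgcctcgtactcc

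The 3 promoters of the higher genes did not carry 1 common motif among those searched. EGR1 had 2 CArG boxes, at -105 to -96 and -83 to -74 from the start, along with TGACGT at 2 places and 1 EGR site. Within these 250 bases, EGR1 was the only one of the 7 with a CArG box, which 1.16% of 35116 promoters held. Bases farther upstream were not searched, so a site beyond the window, in FOS or another member, would be missed. JUN had TGACATCA at -67 to -60, a motif found in 2.37% of promoters. JUND had the full TGACGTCA at -200 to -193, which overlaps its TGACGT matches and occurred in 1.65% of promoters, and a further TGACGT at -87 to -82. FOS and FOSL2, neither of them higher by 2-fold, each had 1 TGACGT, found in 7.10% of promoters. GCGNGGGCG was in 8.41% of promoters, TGANTCA was in 6.57% and in none of the 7, and neither JUNB nor IER2 had any match. A match describes the letters in this window only.

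All 8 tested members carried m6A peaks in both lists, and in each the 3' UTR peak of one list overlapped that of the other. A peak in both lists was found for 76% of tested genes, and overlapping 3' UTR peaks for 46.2%. FOSL1 had no peak in either list. The members had 15 peaks in NC and 10 in MA. All 10 MA peaks overlapped a NC peak, against 79.6% of all MA regions, and 10 of the 15 NC peaks overlapped a MA peak, against 73.8% of all NC regions. Neither list gives the depth of its RIP library, which bears on how many peaks were called. Folds below are the authors' fold enrichment, taken as RIP over input, and are read only within their own list.

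Member peaks were long. The authors' annotation gives each a single feature, so a long peak named for a UTR may also cover coding sequence. The median length was 594 bp in NC and 767 bp in MA, against 299 and 300.0 bp for the whole lists, and 11 of the 15 and 9 of the 10 were longer than the median of their list. The EGR1 peak was the longest, at 1545 bp in NC (chromosome 5, 138466963 to 138468507, GRCh38.p13, plus strand) and 1694 bp in MA. It was longer than 98.6% of NC peaks and 98.4% of MA peaks. Set against the exonic length of 3137 bp recovered from the FPKM values, it covered 49.3% of the transcript in NC and 54.0% in MA. The fold was 5.35 in NC and 3.57 in MA. EGR1 peaks ended at the same base and the MA peak began 149 bp farther upstream, so the m6A call on EGR1 was nearly the same while its input level was 3.00 times as high.

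JUN had a 3' UTR peak and a 5' UTR peak in both lists, by the authors' annotation. The 3' UTR peak was at chromosome 1, 58781728 to 58782320 (minus strand, fold 6.20) in NC and 58781778 to 58782271 (fold 3.58) in MA. A peak annotated as 5' UTR began at the same base in both and was 544 bp long in NC (fold 5.17) and 396 bp in MA (fold 2.43). A short NC peak nearest the start, 149 bp at fold 1.62, had no MA partner and was near the bottom of its list, at percentile 2.33 by fold. Peaks covered 39.5% of the 3257 bp of JUN in NC and 27.3% in MA.

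JUNB and JUND kept nearly the same peaks. JUNB had a 5' UTR peak at chromosome 19, 12791535 to 12792376 (plus strand, fold 5.10) in NC, which ended 50 bp sooner in MA (fold 3.01), and a 3' UTR peak from 12792623 to 12793216 (fold 5.00), which began 49 bp sooner in MA (fold 3.32). Together they covered 78.5% of the JUNB transcript in NC and 78.4% in MA, the largest share among the members. JUND had 1 peak, in the 3' UTR at chromosome 19, 18280139 to 18280930 (minus strand, fold 2.96) in NC and 742 bp long in MA (fold 3.20). It covered 41.1% and 38.5% of the 1929 bp of the gene. So JUNB, level in the inputs, and JUND, higher by 2-fold, were alike in how little their peak edges moved.

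The FOS family accounted for 4 of the 5 NC peaks without a MA partner. FOS had a 3' UTR peak of 734 bp in NC (chromosome 14, 75280910 to 75281643, plus strand, fold 4.67) and of 1028 exonic bp in MA (fold 3.00). Both ended at the same base, and the MA peak, with a span of 1574 bp, reached 840 bp farther upstream, across intron sequence. A 148 bp peak in the 5' UTR of FOS (75278877 to 75279024, fold 1.89) was in NC only. FOSL2 had 4 peaks in NC and 1 in MA. The one in common, in the 3' UTR at chromosome 2, 28412325 to 28413423 (plus strand), had a fold of 5.11 in NC and 4.75 in MA, the highest fold of the members in MA. The 3 others of FOSL2, at folds of 1.90 to 2.53, were annotated as exon, as stop codon and as 3' UTR farther down. The peak annotated as exon had 351 exonic bp over a span of 6357 bp, so it was not within 1 exon. At 4.85 FPKM, FOSL2 was also the lowest of the tested members in the NC input.

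IER2 and IER3 had 1 peak each. That of IER2 lay at chromosome 19, 13153391 to 13154322 (plus strand) with a fold of 7.89, the highest among the members in NC and above 91.4% of NC peaks. In MA it was 49 bp longer at each end, with a fold of 3.29. IER3 had the least alike pair: 693 bp in NC (chromosome 6, 30743347 to 30744039, minus strand, fold 3.92) and 199 bp in MA (30743792 to 30743990, fold 3.18). The MA peak lay within the NC peak and left 445 bp of it at the 3' side and 49 bp at the 5' side uncalled. Peaks covered 56.0% of the 1237 bp of IER3 in NC and 16.1% in MA, beside input levels of 264 and 245 FPKM.

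The 5 NC peaks without a partner had folds of 1.62 to 2.53, all under the NC list median of 3.57. The 10 with a partner had folds of 2.96 to 7.89, and 9 of them were above that median. In MA the folds went from 2.43 to 4.75, and 7 of 10 were above the list median of 3.07.

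**Figure D4:**
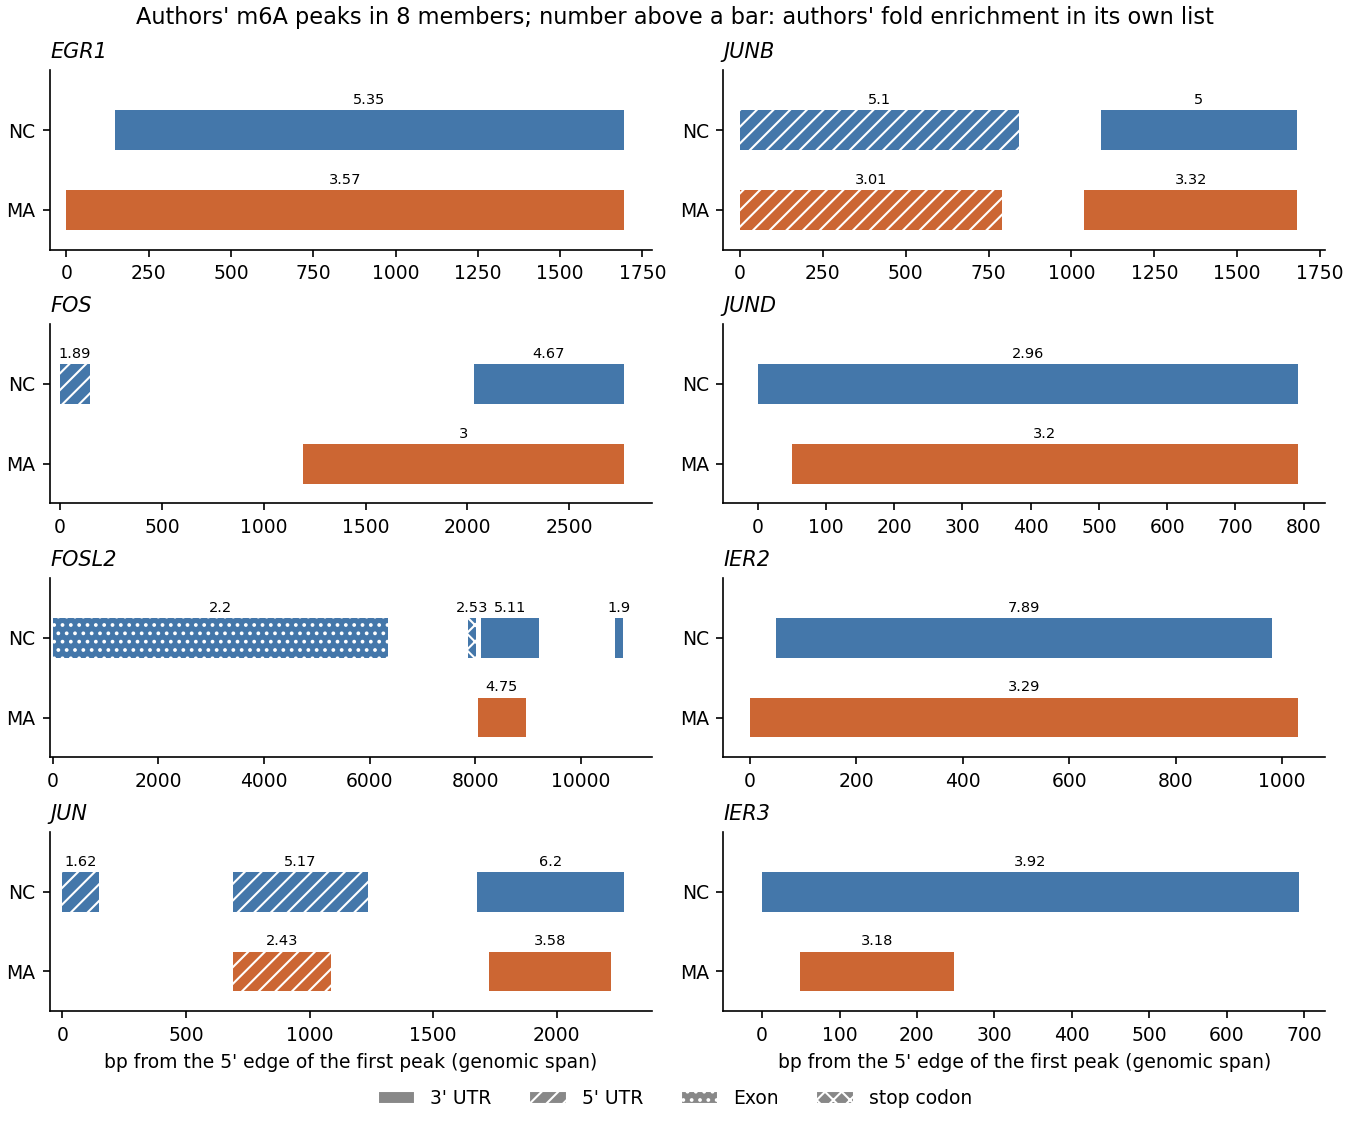
Peaks of 8 members in the NC (blue) and MA (orange) lists, drawn 5' to 3' as bp of genomic span from the 5' edge of the gene's most upstream peak, with introns included for FOS and FOSL2. The authors' fold is above each bar and hatching gives the annotated feature. Every gene has a plain 3' UTR bar in both rows, and the 5 bars without a partner are blue, in FOS, FOSL2 and JUN.

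Other genes of the response were wider apart than the 9. Of 36 further immediate early genes 31 were tested, 12 were higher by 2-fold or more in MA and 2 lower, with a median log2 difference of 0.72. The shares of all tested genes to read these and the next counts against are 10.3% higher and 2.98% lower. The 2 lower genes were 1 with a pseudocount of 5 FPKM. The higher ones included the matricellular genes CCN1 (34.1 FPKM in NC, 498 in MA) and CCN2, the GTPase RHOB (17.3 in NC, 137 in MA, log2 difference 2.91), ATF3, and 4 Kruppel-like factors, KLF2, KLF4, KLF6 (17.4 in NC, 64.4 in MA, 1.83) and KLF10. BTG1, an antiproliferative gene (12.5 in NC, 38.7 in MA, 1.55), PLK3, a stress kinase (1.22), IER5L (1.13) and GADD45B (1.11) were the rest. The lower ones were the kinase SGK1 (33.3 in NC, 10.6 in MA, -1.56) and the phosphatase DUSP2 (6.97 in NC, 2.43 in MA, -1.22). The remaining AP-1 and EGR relatives were low: FOSB, EGR2 and EGR4 were under 1 FPKM in both inputs. Overlapping 3' UTR peaks were found in 22 of the 31, against 46.2% of all tested genes.

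Of 14 tested genes whose products can pair with AP-1 subunits or resemble them, 5 were higher by 2-fold, against 10.3% of all tested genes, and 0 lower (median 0.52). They were DDIT3 (75.1 FPKM in NC, 435 in MA, log2 difference 2.52), ATF3 (18.5 in NC, 74.8 in MA, 1.96), ATF2 (1.45), CREB1 (1.28) and NFE2L2 (1.18). ATF3 and MAFF are in both of these lists. ATF2 and ATF3 can bind DNA together with JUN, and ATF2 was at 5.05 FPKM in NC and 15.5 in MA. Upstream kinases and SRF cofactors were closer to the typical gene, with a median of 0.31 over 18 genes. The kinase MAP3K1 lay just at 2-fold, at 1.82 FPKM in NC and 4.65 in MA (1.01), followed by the SRF cofactor ELK4 (0.93) and the ERK kinase MAP2K2 (-0.69). The count of 1 past 2-fold was 0 with a pseudocount of 5 FPKM, with the median difference set to 0 or with a filter of 5 FPKM, and 2 with a pseudocount of 0.1 FPKM or as TPM. SRF itself was at 30.2 FPKM in NC and 34.2 in MA.

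Feedback genes of the ERK and EGR1 response lay on the other side, 8 of 10 below 0. Among all tested genes, between 41.6% and 45.2% lay below 0. The median of the 10 was -0.26, against 0.11 for all tested genes. None was past 2-fold, little apart from the 10.3% higher and 2.98% lower among all tested genes. IER3 is 1 of the 10, as is DUSP6, which is also among the further immediate early genes. The EGR1 corepressors differed in sign, NAB1 at 8.59 FPKM in NC and 15.5 in MA (0.79) and NAB2, itself an EGR1 target, at 31.4 in NC and 20.3 in MA (-0.61). The ERK inhibitor SPRY4 had a log2 difference of -0.52. Of 21 factors of AU-rich element recognition and mRNA decay, 3 were higher by 2-fold and 0 lower (median 0.31), near the 10.3% and 2.98% of all tested genes. The higher count was 6 with a pseudocount of 0.1 FPKM or as TPM and 1 with a pseudocount of 5 FPKM, and the lower count was 1 with a pseudocount of 0.1 FPKM or with the median difference set to 0. The 3 were the decapping enzyme DCP2 (1.82 in NC, 8.08 in MA, 1.69), the exonuclease XRN1 (1.87 in NC, 5.39 in MA, 1.15) and the AU-rich element binding protein ZFP36L1 (94.8 in NC, 196 in MA, 1.04). ZFP36, which binds the same elements and is also among the further immediate early genes, was level at 9.67 in NC and 10.0 in MA.

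Genes known as AP-1 or EGR1 targets in other cells were spread on both sides. Of 22, 13 were tested, with 2 higher by 2-fold, near the 10.3% of all tested genes, 1 lower and a median of -0.07. The higher count was 0 with a pseudocount of 5 FPKM and 1 with the median difference set to 0. The collagen receptor subunit ITGA2 was among the higher genes (2.39 FPKM in NC, 6.36 in MA, 1.12). Cyclin D1, CCND1, was lower (94.1 in NC, 40.3 in MA, -1.20).

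**Figure D5:**
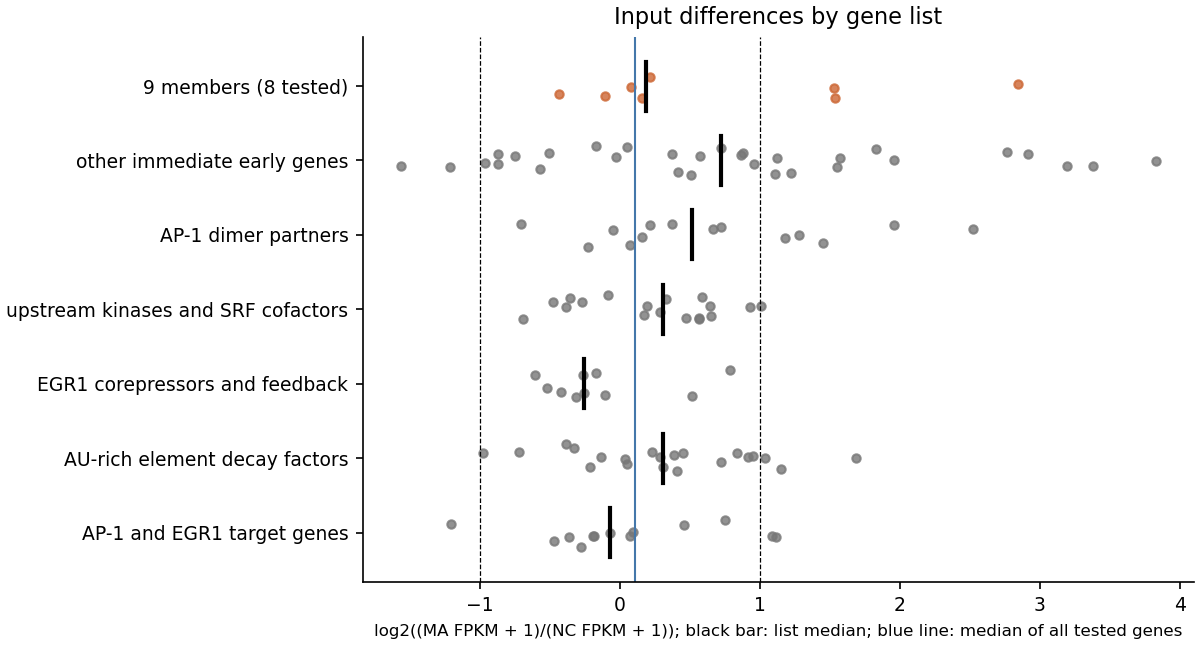
Log2 input differences of tested genes by list, 1 point per gene, with the list median as a black bar, the median of all tested genes (0.11) as a blue line and 2-fold as dashed lines. The further immediate early genes have the widest spread and the highest median (0.72), and the feedback genes the lowest (-0.26).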

How the data were processed

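Input levels are FPKM values deposited by the authors, 1 column per input library. The build is GRCh38.p13, per the submitters' processing notes, which also list ChIPseeker, deepTools, HISAT, HISAT2 and Trimmomatic with no version or role. What counted reads and called peaks is not given in the sources used here. Each peak's fold enrichment, p-value, false discovery rate and width are the authors' deposited values, per the file headers. The fold was taken here as a ratio of RIP over input and the width as the exonic length in bp. Every listed peak had a fold of at least 1.5.

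Rows repeating a peak of the same gene were counted once, and starts were raised by 1 to count from 1. Peaks joined within a list and strand were regions, and an overlap of at least 1 bp of the span on the same strand made a pair shared. Whole reads were recovered from the FPKM values: equal reads in both inputs gave the relative depth, and RefSeq spans gave the total (90 genes at the total kept, 19 at the next best). Reads are the smallest numbers that give whole reads in both libraries. For JUND these give 643 bp, shorter than its peaks, so its RefSeq span of 1929 bp, exactly a multiple, was used as its length. Ratios have exact 95% binomial intervals and levels exact 95% Poisson intervals, both from the smallest reads, also for JUND. The recovery was tested on simulated data. Python 3.11.15, pandas 2.3.3, numpy 2.4.6 and scipy 1.17.1 were used.

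Named genes are all members and their peaks, and in each further list those past 2-fold or else the 3 farthest apart. A gene that this rule names among the target genes is not reported here. Genes given beside them for context (SRF, ZFP36, the low FOSB, EGR2 and EGR4) were named after their values were seen. Members and lists were chosen with earlier results of these data known. Alternatives covered the pseudocount, scaling and filter of the inputs and the fold, false discovery rate, overlap and number of the peaks.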

Additional observations from a re-analysis of the deposited data

How the results depend on the processing

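JUN, EGR1 and JUND made up the 3 members at least 2-fold higher, and 0 members were 2-fold lower, with pseudocounts of 0.1 and 5 FPKM, with the median difference set to 0, as TPM, without a filter and with a filter of 5 FPKM. JUN went from 2.51 (pseudocount of 5) to 2.98 (TPM), EGR1 from 1.36 to 1.64 and JUND from 1.42 (median set to 0) to 1.61. As TPM the median of all tested genes was 0.20 in place of 0.11. IER2 alone changed sign, to -0.03 with the median set to 0. Among all tested genes the share at least 2-fold higher was 17.0% with a pseudocount of 0.1, 2.58% with 5, 7.16% with the median set to 0 and 17.0% as TPM, and the counts of the further lists that moved by over 1.5 times stand beside them. With peaks at a fold of 3 or more, 9 NC member peaks remained of 15, beside 14284 of 21837 NC regions over the whole list. At that fold 7 members had overlapping 3' UTR peaks, against 28.0% of tested genes. JUND, whose NC fold was 2.96, was not among the 7. When 50% of each peak had to be shared, 6 members had overlapping 3' UTR peaks, without FOS and IER3, against 34.3% of tested genes. Overlap of exonic blocks was not run, since the lists give the span and not the blocks. The absence of replicates leaves variation between cultures unmeasured. No paired analysis was possible because each group has 1 library.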

Other observations

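Of the NR4A nuclear receptors, also immediate early genes, NR4A1 and NR4A3 were lower in MA, where JUN and EGR1 were higher; they, IER5 and EGR2 are named here after their values were seen. NR4A1 was at 41.8 FPKM in NC and 22.4 in MA and NR4A3 at 8.96 in NC and 4.45 in MA, while NR4A2 was low, at 1.25 in NC and 2.00 in MA. IER5, a relative of IER2, was at 39.1 FPKM in NC and 19.5 in MA. EGR2, a zinc finger relative of EGR1, was at only 0.650 FPKM in NC and 0.822 in MA, yet it had 3 peaks in NC and 2 in MA.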
